A study of Macaca fascicularis with 6 samples.

Results

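Histone methylation is laid down by lysine methyltransferases (writers) and taken off by lysine demethylases (erasers), and 56 of the 28164 genes in the count table carried a name of these families. They were taken by name alone: symbols that begin with KMT, SETD, KDM, PRDM, EZH, EHMT, SUV39H or NSD followed by a digit, and DOT1L, without the SETDB genes. Of these, 24 were writers outside the PRDM family, 17 were erasers and 15 were PRDM genes. The PRDM genes encode zinc finger proteins built around a PR domain, which is a relative of the SET domain of the writers. The class of writers follows the name. Some of its genes, such as KMT2E, SETD3 and SETD5, are not known to methylate histones or are disputed. The oocytes came from cynomolgus monkeys (Macaca fascicularis). The study compared fully grown oocytes arrested at the germinal vesicle stage (GV), oocytes that reached metaphase II in vitro (IVM MII) and oocytes that reached it in vivo (IVO MII), with 2 libraries in each of the 3 groups. All were described as wild type, as not treated and as stripped of their surrounding cells. How many oocytes or animals went into a library is not stated in the sources used here, so each p-value measures only the spread between these libraries, which may be technical.

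The marks differ in what they accompany. Methylation of lysine 4 of histone H3 (H3K4) marks promoters and enhancers, H3K36 methylation lies over transcribed gene bodies, and H3K9 and H3K27 methylation lie in silent chromatin. Growing mammalian oocytes lay down much of their histone methylation while they transcribe, then become silent at the GV stage; from there to metaphase II, messenger RNA levels depend on storage, polyadenylation and decay of RNA already made. In mouse oocytes the H3K4 demethylase KDM1B is needed for maternal imprints and the H3K36 writer SETD2 for the normal pattern of DNA methylation.

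Library totals ran from 27707021 to 35515139 counts, and levels are given as scaled CPM, which is CPM computed on library totals after TMM scaling. A count floor of 3 per library corresponded to 0.0694 to 0.116 scaled CPM. The RNA was primed on its poly(A) tail and no RNA standard is named in the sources used here. A level is therefore a share of the polyadenylated RNA of its library. Fewer molecules per oocyte cannot be told apart from a shorter tail or from more polyadenylated RNA of other genes. All 17 oocyte markers on a fixed list were tested, and their summed level was 33153 to 40681 scaled CPM in GV, 16406 to 18710 in IVM MII and 9610 to 12373 in IVO MII. The cumulus and granulosa markers summed to 34.2 to 40.4 scaled CPM in GV. Their sum was 86.5 to 88.9 in IVM MII and 37.1 to 54.1 in IVO MII. Of the 20 on this list, 17 were in the table and 6 were tested. STAR, INHA, FOXL2 and PTX3 had no count in any library. By edgeR's test at an adjusted p under 0.05, GREM1, RUNX2 and TNFAIP6 stood above IVO MII in IVM MII, and 0 were lower. Over GV, the IVM MII level was raised in GREM1, RUNX2 and HAS2, again with 0 lower. In IVO MII, HAS2 was above GV and TNFAIP6 below it. GREM1 averaged 3.97 scaled CPM in GV, 29.0 in IVM MII and 4.01 in IVO MII. Markers of theca, stroma and endothelium (10 of 11 in the table, LUM at 0) summed to 331 to 390 scaled CPM in GV, 155 to 163 in IVM MII and 90.9 to 95.5 in IVO MII. In GV most of this was VWF, at 288 and 337, while COL1A1 and DCN averaged 0.39 and 0.32. VWF was called below GV in both MII groups and higher in IVM MII than in IVO MII. PECAM1 was above GV in both. OGN was above GV in IVO MII and lower in IVM MII than in IVO MII. Markers of blood (8 of 9 in the table, CD3E and HBB at 0) summed to at most 13.6. The part of other cells in the changes reported here was not tested.

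All 24 writers and all 17 erasers passed the filter on low counts, but only 7 of the 15 PRDM genes did. PRDM7, PRDM9, PRDM12, PRDM13 and PRDM14 had 0 counts in all 6 libraries. PRDM9, which writes H3K4 methylation at recombination hotspots, and PRDM14, a factor of primordial germ cells, act at earlier steps of the germ line. PRDM8 had 1 count in all, PRDM11 had 9 and PRDM16 had 15. The 56 genes together took 0.173% and 0.142% of all counts in GV, 0.274% and 0.240% in IVM MII, against 0.314% and 0.274% in IVO MII.

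A few genes held most of this RNA. Levels were set per kilobase of exon, which makes different genes only roughly comparable. Whether priming on the poly(A) tail or a loss of reads at exon junctions affected genes unequally was not tested. By this measure KDM1B had the highest group mean of the 56 in every group, with 67.9 scaled CPM per kb in GV, 88.5 in IVM MII and 135 in IVO MII. It led in 5 of the 6 libraries; in GV replicate 2 PRDM15 stood above it, at 59.7 against 51.2. Next by group mean in GV came PRDM15 (53.3), SUV39H2 (28.8), KDM1A (21.8) and KMT2C (21.7). In IVM MII KMT2C came second (47.8) and KDM1A next (36.2), in both libraries. In IVO MII their means were 69.4 and 66.2 and their order differed between the libraries, with KMT2C at 84.1 and 54.7 and KDM1A at 64.9 and 67.5. Among writers, the per-length share of KMT2C was 31.0% and 23.2% in GV, 44.3% and 44.2% in IVM MII, then 61.2% and 51.9% in IVO MII. SUV39H2, the H3K9 writer of constitutive heterochromatin, held 34.4% and 38.8% of the writers' level in GV, 18.7% and 23.0% in IVM MII, against 10.7% and 12.8% in IVO MII. By this per-length level the leading writer was an H3K9 enzyme in GV and an H3K4 enzyme in both MII groups. The exon length was 17.7 kb for KMT2C and 4.02 kb for SUV39H2. Fold changes against GV rose with exon length over all genes (below), and these shares were not corrected for that trend.

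Summed per kilobase, the 17 erasers stood at 130 and 92.0 in GV, 164 and 170 in IVM MII, then 276 and 249 in IVO MII, and the 3 groups did not overlap. The sum over the writers was 85.5 and 72.7 in GV, 106 and 110 in IVM MII, against 137 and 105 in IVO MII, so both MII groups lay above GV while IVM MII and IVO MII overlapped. The sum over the PRDM genes went the other way, from 73.3 and 86.0 in GV to 41.6 and 44.3 in IVM MII, then 42.0 and 47.1 in IVO MII. This fall was that of 1 gene, PRDM15, whose group means were 53.3 in GV, 11.3 in IVM MII and 16.3 in IVO MII. These sums are descriptions and rest mainly on KDM1B, KDM1A, KMT2C, SUV39H2 and PRDM15.

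**Figure D1:**
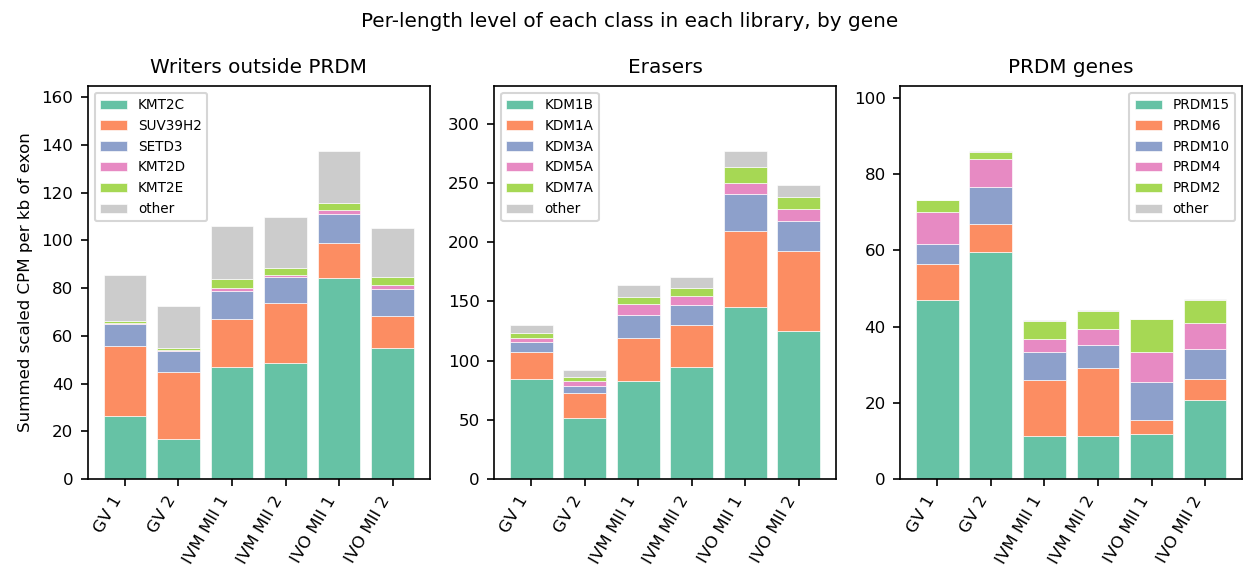
Stacked bars give the summed scaled CPM per kb of exon of writers (left), erasers (middle) and PRDM genes (right) in each of the 6 libraries, with 5 genes of each class in colour and the other genes in grey. KDM1B is the largest block of the erasers in every library, KMT2C takes 31.0% and 23.2% of the writers in GV but 61.2% and 51.9% in IVO MII, and the block of PRDM15 shrinks from GV to both MII groups.

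Against GV, more members were called higher than lower in both MII groups, where a call means an adjusted p under 0.05 in edgeR's quasi-likelihood test with Benjamini-Hochberg adjustment over all 15815 genes tested. In IVM MII, 18 of the 48 tested members were higher than in GV and 6 lower, or 50.0% called, against 50.3% of all genes tested. In IVO MII, 20 were higher and 8 lower, or 58.3% called, against 58.5% of all genes. The total share of members that changed was therefore near the background in both comparisons, and what differed was the direction: among all genes tested 25.6% were called higher and 24.7% lower in IVM MII, and 28.1% higher and 30.5% lower in IVO MII. The median log2 fold change was 0.52 over the tested members and 0.06 over all genes in IVM MII, while it was 0.65 and -0.07 in IVO MII. Both IVM MII libraries lay above both GV libraries in 25 members and below them in 10, against 40.4% and 37.4% of all genes tested, and both IVO MII libraries in 28 and 13, against 38.2% and 42.1%. Both comparisons use the same 2 GV libraries, so their counts are not independent.

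Gene length moved with this direction. The median exon length was 7237 bases for the tested members and 2974 for all genes tested, and the log2 fold change rose with exon length across all genes, with a Spearman rho of 0.222 in IVM MII and 0.264 in IVO MII (across genes, which are not independent replicates and share their libraries). With the trend on length removed from each library, 10 members were called higher and 10 lower in IVM MII, and 17 higher and 12 lower in IVO MII. The share of called members that were higher went from 75.0% to 50.0% in IVM MII and from 71.4% to 58.6% in IVO MII. Over all genes called it went from 50.9% to 48.9% in IVM MII and from 48% to 45.9% in IVO MII. Library totals alone moved the median of all genes in IVM MII to 0.35 and the members' median to 0.81, with 22 members higher and 4 lower. Leaving out GV replicate 2 leaves 1 GV library, so only effect sizes are given for it. The median log2 fold change of IVM MII against GV was then 0.47 for the members and 0.09 for all genes. A filter of 10 CPM in 2 libraries kept 8048 genes, 26 of them members. With it, 9 members rose and 5 fell by call in IVM MII, while the whole filtered table had 2268 rises and 2352 falls.

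**Figure D2:**
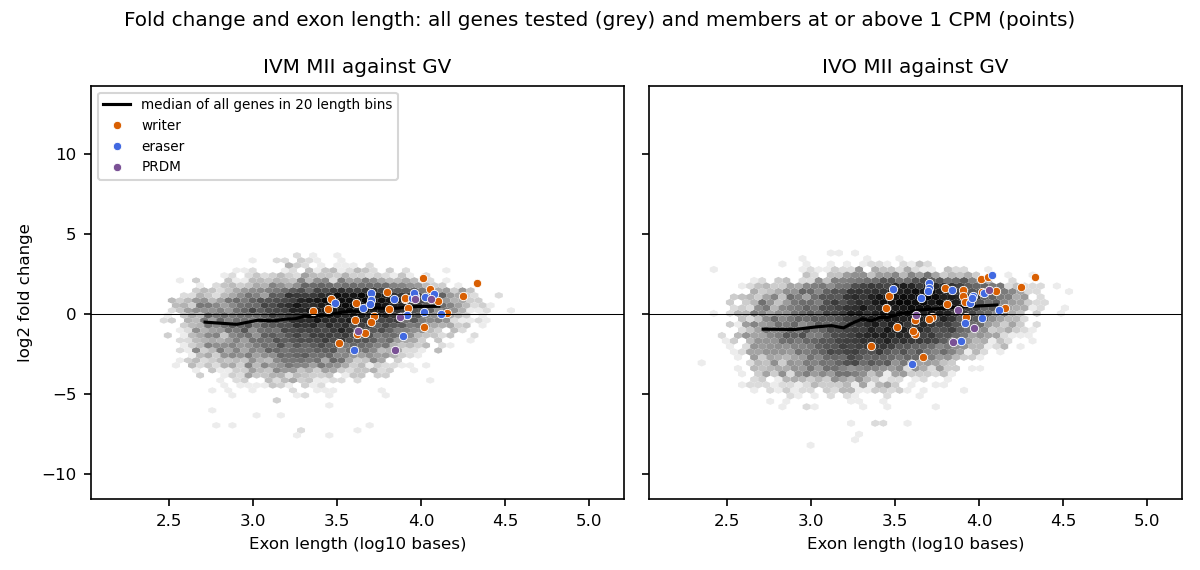
Each point is 1 of the 44 tested members with a mean of at least 1 scaled CPM in their highest group, with its exon length (log10 bases) on the x axis and its log2 fold change against GV on the y axis, for IVM MII (left) and IVO MII (right); grey hexagons show all 15815 genes tested and the line is the median of all genes in 20 length bins. The line climbs with length in both panels, and most members lie on its right, longer side.

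Between the 2 kinds of MII oocyte, 9 of the 48 tested members differed, or 18.8%, against 24.6% of all genes tested. PRDM6, SETD9, EZH2 and SUV39H2 were higher in IVM MII, and SETD2, KDM1A, KDM7A, KDM6B and PRDM4 were lower. Among all genes, 14.3% were called higher and 10.3% lower. In 9 members both IVM MII libraries lay above both IVO MII libraries, which was so for 33.1% of all genes, and in 22 members both lay below, against 29.9% of all genes. The members' median log2 fold change was -0.22 and that of all genes 0.02. This split depended on the scaling: with library totals alone, which moved the median of all genes to 0.24, 5 members were higher and 3 lower and the members' median was 0.01, whereas RLE factors gave 3 higher and 8 lower and DESeq2 gave 4 and 8. The summed cumulus and granulosa markers also differed here (86.5 to 88.9 scaled CPM in IVM MII and 37.1 to 54.1 in IVO MII), and their part was not tested. The calls of SETD2, SETD9 and PRDM6 held under every alternative in which the gene could be tested.

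**Figure D3:**
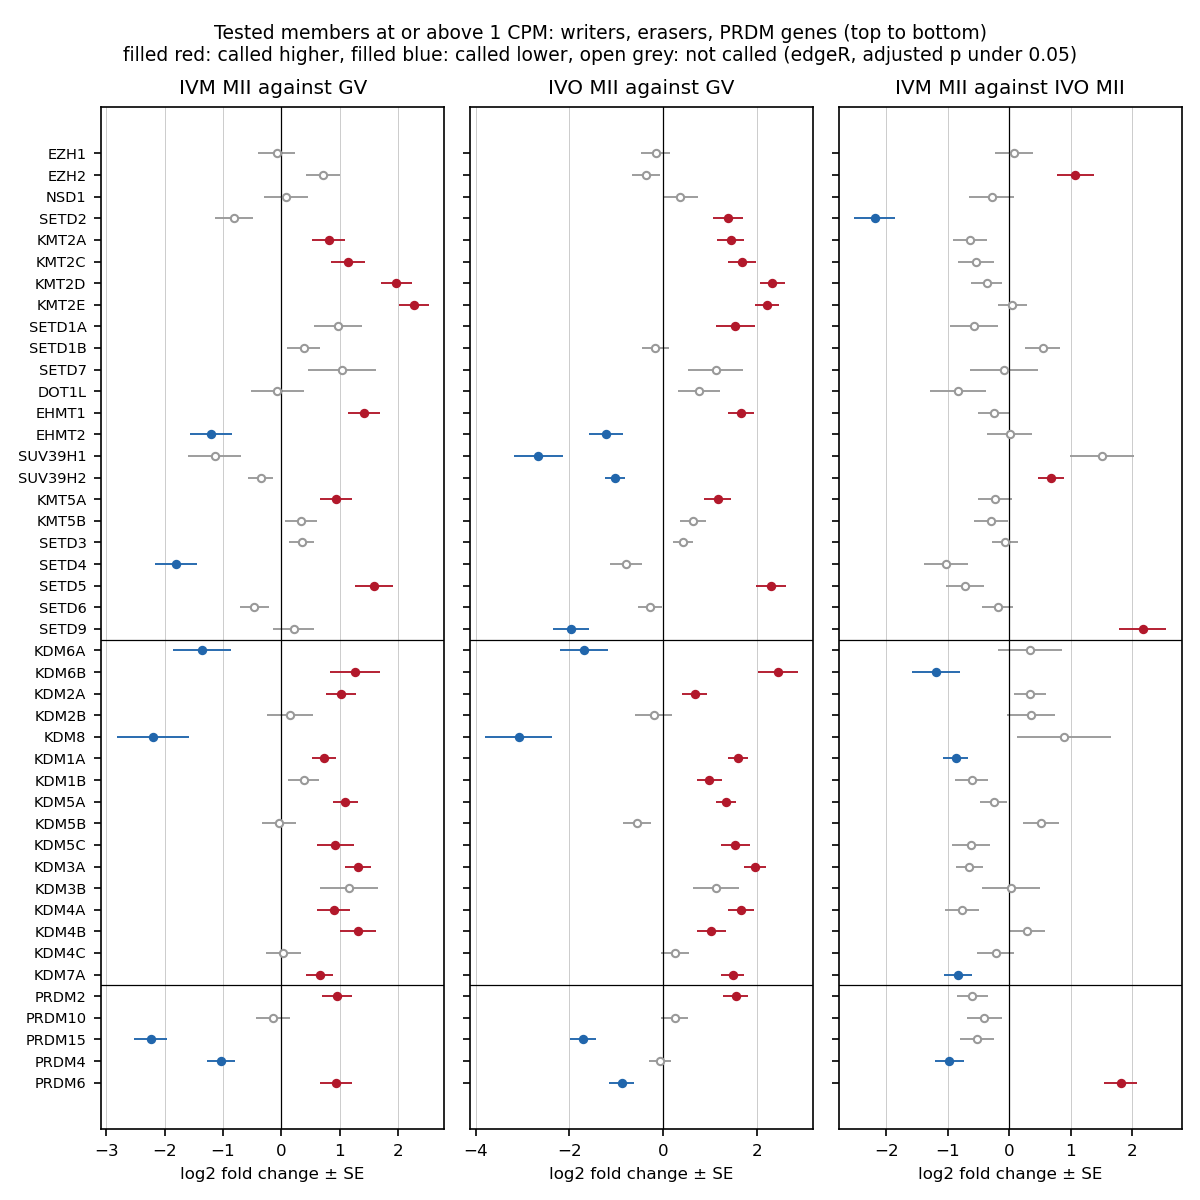
Points give the log2 fold change and bars its standard error for the 44 tested members with a mean of at least 1 scaled CPM in their highest group, in IVM MII against GV (left), IVO MII against GV (middle) and IVM MII against IVO MII (right), with writers, erasers and PRDM genes from top to bottom; red is called higher, blue called lower, open grey not called. In the first panel 18 points are red and 6 blue, in the second 20 and 8, and in the third 4 and 5.

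Against GV, 4 of the 7 H3K4 writers were higher in IVM MII, where 25.6% of all genes were, and 5 in IVO MII, against 28.1%. By edgeR's test 0 were lower in either and 0 differed between the MII groups. With the length trend removed, 3 were higher in IVM MII, and in IVO MII 4 were higher and 1, SETD1B, was lower. The 7 include KMT2E, called higher in both MII groups, although its SET domain is not known to methylate histones. KMT2C (macFas5 chromosome 3, 184832193 to 185019273), the catalytic subunit of an enhancer H3K4 methyltransferase complex, stood at 469.6 and 299 scaled CPM in GV, 833 and 859 in IVM MII, against 1489.8 and 969 in IVO MII. All 4 MII libraries were above both GV libraries, with a wide gap between the 2 IVO MII libraries. Its log2 fold change against GV was 1.14 ± 0.30 (SE) in IVM MII, with an adjusted p of 0.00757, and 1.68 ± 0.30 in IVO MII, with an adjusted p of 0.000558. Leaving out GV replicate 2 ended the IVM MII call (0.85, adjusted p = 0.0865).

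KMT2D (chromosome 11, 47849766 to 47893107), the close relative of KMT2C with the same enhancer role, changed more but from a far lower level. It had 7.32 and 5.92 scaled CPM in GV, 30.7 and 21.0 in IVM MII, then 33.4 and 33.3 in IVO MII, with no overlap between GV and MII. The log2 fold change was 1.97 ± 0.26 in IVM MII (adjusted p = 0.000137) and 2.33 ± 0.27 in IVO MII (adjusted p = 3.04e-05). Per kilobase, KMT2C was 77.7 and 61.2 times as abundant as KMT2D in GV, 32.9 and 49.4 times in IVM MII, against 54.0 and 35.3 times in IVO MII, so KMT2C led its relative throughout.

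KMT2E (chromosome 3, 137430341 to 137533808) is named with this family, but its SET domain is not known to methylate histones and the protein binds methylated H3K4. It had 8.37 and 6.32 scaled CPM in GV, 39.5 and 31.2 in IVM MII, then 32.4 and 35.8 in IVO MII. The MII libraries overlapped and all lay well above GV, at log2 fold changes of 2.27 ± 0.25 in IVM MII (adjusted p = 3.98e-05) and 2.21 ± 0.25 in IVO MII (adjusted p = 3.07e-05). KMT2A (chromosome 14, 114426960 to 114519555), the founding MLL protein, had 4.90 and 3.68 scaled CPM in GV, 7.84 and 7.19 in IVM MII, against 12.8 and 10.6 in IVO MII. The 3 groups did not overlap. Its log2 fold change was 0.81 ± 0.28 in IVM MII (adjusted p = 0.0318) and 1.44 ± 0.28 in IVO MII (adjusted p = 0.00107). The IVM MII call of KMT2A ended when either GV or either IVM MII library was left out (adjusted p 0.0519 to 0.224), with the 10 CPM filter (0.122), with only the 4 libraries compared (0.0609) and with the length trend removed (0.328).

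The other H3K4 writers were low. SETD1A, a catalytic subunit of the SET1 complexes, had 1.46 and 2.20 scaled CPM in GV, 4.91 and 2.27 in IVM MII, then 5.33 and 5.37 in IVO MII. It was called only against GV in IVO MII, at 1.54 ± 0.42 (adjusted p = 0.00731), and the call ended without GV replicate 1 (1.29, adjusted p = 0.0596) and with the length trend removed (0.98, adjusted p = 0.0676). In IVM MII against GV its value was 0.97 (adjusted p = 0.0675), and SETD1A was called there in 4 alternatives: with library totals, with no filter, and when replicate 2 of either MII group was left out (adjusted p 0.0184 to 0.0402). SETD1B, the alternative subunit and a gene that mouse oocytes need, averaged 10.4 scaled CPM in GV, 13.5 in IVM MII and 9.25 in IVO MII. Against GV, IVO MII differed by -0.16 in this gene, not called, but with the length trend removed it was called lower (-0.72, adjusted p = 0.0412). SETD7 reached at most 1.71 scaled CPM and was called only without IVO MII replicate 1, in IVO MII against GV (1.54, adjusted p = 0.0479).

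H3K9 writers moved in both directions: of 4, in IVM MII 1 was higher and 1 lower than in GV (3 lower with the length trend removed), and in IVO MII 1 was higher and 3 lower, where 30.5% of all genes were lower. SUV39H2 (chromosome 9, 15397698 to 15423040) had 118 and 113 scaled CPM in GV, 79.8 and 101 in IVM MII, against 59.0 and 54.2 in IVO MII. The groups did not overlap and GV was highest. SUV39H2 fell by 1.03 ± 0.22 on the log2 scale from GV to IVO MII (adjusted p = 0.00165), while its IVM MII value against GV was -0.35 ± 0.22 (adjusted p = 0.188), which passed the threshold with the 10 CPM filter (-0.63, adjusted p = 0.0222) and with the length trend removed (-0.55, adjusted p = 0.0443). It was higher in IVM MII than in IVO MII by 0.68 ± 0.22 (adjusted p = 0.0394). That last call ended with RLE factors (adjusted p = 0.0604) and without GV replicate 1 (0.0505), IVM MII replicate 2 (0.230), IVO MII replicate 1 (0.0906) or IVO MII replicate 2 (0.147).

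SUV39H1, on chromosome X (47223947 to 47238022), encodes the second enzyme of this pair and was scarce, with 2.25 and 2.10 scaled CPM in GV, 1.16 and 0.795 in IVM MII, then 0.232 and 0.441 in IVO MII. The order of the groups was the same as for SUV39H2, without overlap. SUV39H1 was called in 1 comparison, where it fell by 2.66 ± 0.52 on the log2 scale from GV to IVO MII (adjusted p = 0.000958). Its other values lay near the threshold, at -1.14 ± 0.46 in IVM MII against GV (adjusted p = 0.0536, called in 5 alternatives) and 1.52 ± 0.52 in IVM MII against IVO MII (adjusted p = 0.0522, called in 4). Per kilobase SUV39H2 was 60.4 to 62.1 times as abundant as SUV39H1 in GV, 79.2 and 146 times in IVM MII, against 292 and 141 times in IVO MII.

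EHMT1 and EHMT2, which form one enzyme complex for H3K9 mono- and dimethylation, changed places. EHMT1 (chromosome 15, 398564 to 537196) had 4.02 and 3.35 scaled CPM in GV, 10.7 and 8.98 in IVM MII, then 11.2 and 12.1 in IVO MII. EHMT2 (chromosome 4, 138958199 to 138976917) had 10.5 and 8.89 in GV, 5.74 and 2.61 in IVM MII, against 4.37 and 3.94 in IVO MII. For each gene, both MII groups lay apart from GV, EHMT1 above and EHMT2 below. EHMT1 rose by 1.42 ± 0.27 on the log2 scale in IVM MII (adjusted p = 0.00137) and by 1.66 ± 0.28 in IVO MII (adjusted p = 0.000333). EHMT2 fell by 1.21 ± 0.36 in IVM MII (adjusted p = 0.0158) and by 1.22 ± 0.37 in IVO MII (adjusted p = 0.0129). Without GV replicate 1 EHMT2 was called in neither (adjusted p = 0.0778 in IVM MII and 0.0648 in IVO MII), and in IVM MII also not without IVM MII replicate 2 (0.114) or with library totals (0.0950). The ratio of EHMT1 to EHMT2 per kilobase was 0.254 and 0.251 in GV, 1.24 and 2.29 in IVM MII, then 1.71 and 2.04 in IVO MII, so it lay below 1 in both GV libraries and above 1 in all 4 MII libraries.

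**Figure D4:**
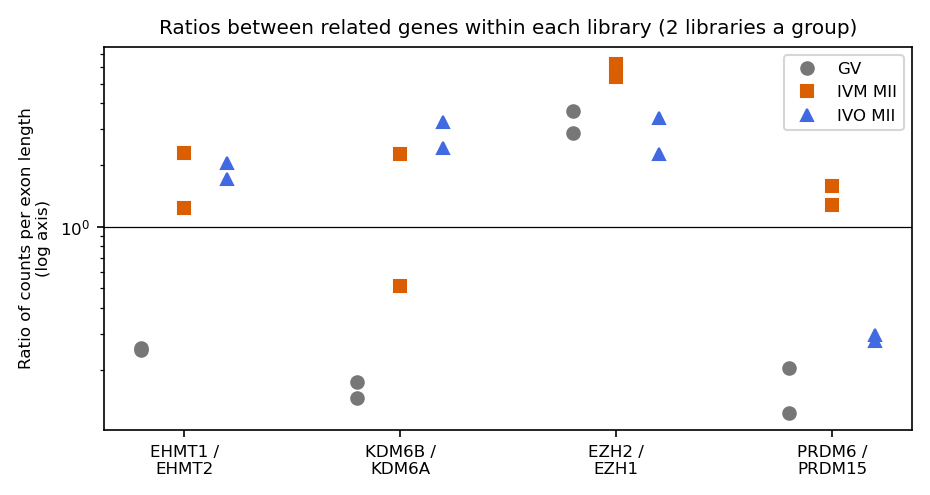
Each point is 1 library, and the y axis (log scale) gives the ratio of counts per exon length of 2 related genes in that library; the line marks a ratio of 1. EHMT1 over EHMT2 and KDM6B over KDM6A are under 1 in GV and above 1 in 7 of the 8 MII points, EZH2 over EZH1 is highest in IVM MII, and PRDM6 over PRDM15 is above 1 in IVM MII alone.

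Of the H3K27 writers, EZH2 (chromosome 3, 181829081 to 181903800), the main catalytic subunit of Polycomb repressive complex 2, had 14.5 and 10.5 scaled CPM in GV, 18.7 and 22.4 in IVM MII, against 12.1 and 7.37 in IVO MII. Both IVM MII libraries were above all others, while GV and IVO MII overlapped. EZH2 was higher in IVM MII than in IVO MII by 1.08 ± 0.30 on the log2 scale (adjusted p = 0.0214), a call that ended without IVM MII replicate 2 (0.95, adjusted p = 0.120) or IVO MII replicate 2 (0.78, adjusted p = 0.102). Against GV its value was 0.72 ± 0.30 in IVM MII (adjusted p = 0.0616, and 0.0169 to 0.317 over the alternatives) and -0.36 ± 0.30 in IVO MII (adjusted p = 0.313). EZH1, the alternative subunit, averaged 4.82, 4.55 and 4.31 scaled CPM in the 3 groups and was called in no comparison. EZH2 over EZH1 per kilobase was 3.67 and 2.87 in GV, 6.21 and 5.36 in IVM MII, then 3.39 and 2.27 in IVO MII.

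SETD2 (chromosome 2, 102015886 to 102176224), the writer of H3K36 trimethylation, was among the members that set the MII groups furthest apart. It had 7.18 and 5.51 scaled CPM in GV, 2.71 and 4.57 in IVM MII, against 19.0 and 14.1 in IVO MII. Both IVM MII libraries were below GV and both IVO MII libraries above it. SETD2 was lower in IVM MII than in IVO MII by a factor of 4.55 (log2 -2.19 ± 0.33, adjusted p = 0.000787), and higher in IVO MII than in GV by 1.38 ± 0.32 (adjusted p = 0.00306). Its value in IVM MII against GV was -0.81 ± 0.33 (adjusted p = 0.0568), just above the threshold, and it was called lower in 9 of the 14 alternatives, with adjusted p-values from 0.00556 with the length trend removed to 0.0482 with no filter. NSD1, which writes H3K36 dimethylation, averaged 3.02, 3.20 and 3.88 scaled CPM in the 3 groups and was called in no comparison.

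The H4K20 and remaining writers gave calls in a few genes. KMT5A (chromosome 11, 127697368 to 127718372), which monomethylates H4K20, had 4.87 and 5.44 scaled CPM in GV, 11.2 and 8.44 in IVM MII, then 10.5 and 12.6 in IVO MII. It rose by 0.93 ± 0.28 in IVM MII (adjusted p = 0.0153) and by 1.16 ± 0.28 in IVO MII (adjusted p = 0.00371). Its IVM MII call ended without GV replicate 1 (0.0969), GV replicate 2 (0.0591) or IVM MII replicate 1 (0.0899) and with the 10 CPM filter (0.0646). KMT5B averaged 5.26 scaled CPM in GV, 6.65 in IVM MII and 8.16 in IVO MII and KMT5C reached at most 0.502; neither was called. DOT1L, the H3K79 writer, had 5.02 scaled CPM in IVO MII replicate 1 and 1.42 to 2.64 in the other libraries and was not called, although without IVO MII replicate 2 it was called in both comparisons that use IVO MII (adjusted p = 0.0253 against GV and 0.0423 for IVM MII against IVO MII).

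SETD5 (chromosome 2, 140375945 to 140460106), whose own methyltransferase activity is disputed, had 2.83 and 2.67 scaled CPM in GV, 9.67 and 6.82 in IVM MII, against 10.6 and 16.6 in IVO MII. All 3 groups were apart. Its log2 fold change against GV was 1.59 ± 0.32 in IVM MII (adjusted p = 0.00181) and 2.31 ± 0.33 in IVO MII (adjusted p = 0.000115). Between the MII groups SETD5 was called only without IVO MII replicate 1 (adjusted p = 0.0488). SETD3, an actin histidine methyltransferase despite its name, averaged 24.8, 31.6 and 33.3 scaled CPM and SETD6, which methylates non-histone proteins, 11.9, 8.62 and 9.79, and neither was called. SETD6 was called lower than GV with the length trend removed, at -0.75 in IVM MII (adjusted p = 0.0265) and -0.65 in IVO MII (0.0413), and with the 10 CPM filter (0.0266 and 0.0485), and SETD3 was called higher in IVM MII with library totals (0.0340).

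SETD9 and SETD4 lay under 10 scaled CPM and, like EHMT2, SUV39H1, SETD1A, KDM4B, KDM6A, KDM6B and KDM8, are given with their values after those had been seen. SETD9 (chromosome 6, 56386947 to 56417078), a little studied SET domain gene, had 3.40 and 4.50 scaled CPM in GV, 3.66 and 5.51 in IVM MII, then 0.966 and 1.05 in IVO MII. GV and IVM MII overlapped and both lay above IVO MII. It was 4.54 times as high in IVM MII as in IVO MII (log2 2.18 ± 0.38, adjusted p = 0.00198) and fell by 1.96 ± 0.38 from GV to IVO MII (adjusted p = 0.00103). SETD4 had 4.63 and 4.70 scaled CPM in GV, 1.13 and 1.53 in IVM MII, against 2.59 and 2.82 in IVO MII. IVM MII was lowest, and SETD4 fell by 1.81 ± 0.35 from GV to IVM MII (adjusted p = 0.00149). Its other values were -0.79 in IVO MII against GV (adjusted p = 0.0675, and 0.0435 with the length trend removed) and -1.02 between the MII groups (0.0553, and 0.0422 with RLE factors and 0.0449 with DESeq2). Of its exon bases, 6.42% are shared with a gene on the other strand, and reads of both cannot be told apart without a strand setting.

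**Figure D5:**
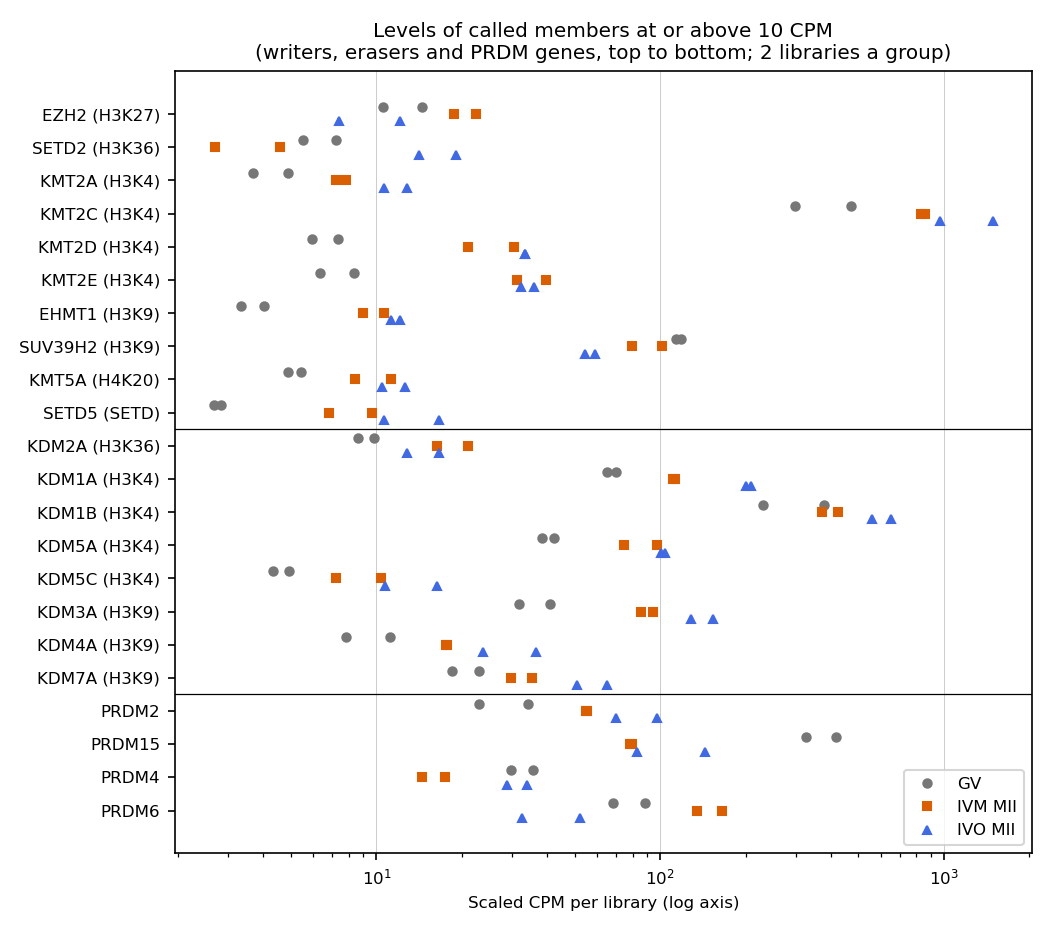
Each symbol is the scaled CPM of 1 library (log axis) for the 22 members at or above 10 scaled CPM in their highest group and called in at least 1 comparison, with writers, erasers and PRDM genes from top to bottom. In most genes the circles of GV lie to the left of both MII groups; SUV39H2 and PRDM15 have GV on the right, and SETD2, EZH2, PRDM4 and PRDM6 have IVM MII and IVO MII on opposite sides or apart.

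Of the 17 erasers, 9 were higher and 2 lower than GV in IVM MII, where 25.6% of all genes were higher and 24.7% lower, and 10 were higher and 2 lower in IVO MII, against 28.1% and 30.5%. With the length trend removed the counts were 4 and 2 in IVM MII, the calls of KDM2A, KDM4A, KDM5C, KDM6B and KDM7A having ended, and 8 and 3 in IVO MII. Between the MII groups 3 were lower in IVM MII, where 10.3% of all genes were, and 0 higher. Among the 5 H3K4 erasers, 3 were higher than GV in IVM MII and 4 in IVO MII (2 and 4 with the length trend removed). For this group 0 were lower in either, but 1, KDM5B, was lower in IVO MII once the length trend was removed. KDM1A (chromosome 1, 205355577 to 205421387), the founding lysine demethylase, which acts on mono- and dimethylated H3K4, had 69.8 and 65.1 scaled CPM in GV, 113 and 111 in IVM MII, then 201 and 209 in IVO MII. Replicates were close and the groups far apart. It rose by 0.73 ± 0.21 in IVM MII (adjusted p = 0.0113) and by 1.60 ± 0.21 in IVO MII (adjusted p = 6.84e-05), and IVM MII was lower than IVO MII (log2 -0.87 ± 0.21, adjusted p = 0.0101). Leaving out IVM MII replicate 1 or replicate 2 ended this last call (-0.85 both times, adjusted p = 0.0619 and 0.0698). The rise in IVM MII was no longer called without GV replicate 2 (0.69, adjusted p = 0.0762) or with the 10 CPM filter (0.45, adjusted p = 0.0663).

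KDM1B (chromosome 4, 152427908 to 152494226), the relative of KDM1A that acts in growing oocytes, had 379 and 229.6 scaled CPM in GV, 371 and 423 in IVM MII, against 649 and 559 in IVO MII. GV and IVM MII overlapped and IVO MII lay above both. KDM1B was higher in IVO MII than in GV by 0.99 ± 0.27 (adjusted p = 0.00799), unless GV replicate 2 was left out (0.67, adjusted p = 0.101). Its IVM MII values were 0.38 ± 0.27 against GV (adjusted p = 0.253) and -0.61 ± 0.27 against IVO MII (adjusted p = 0.120). Per kilobase KDM1B exceeded KDM1A by a factor of 3.74 and 2.43 in GV, 2.26 and 2.63 in IVM MII, then 2.23 and 1.85 in IVO MII.

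Among the KDM5 enzymes, which remove H3K4 trimethylation, KDM5A (chromosome 11, 285879 to 383696) was by far the most abundant. It had 38.3 and 42.3 scaled CPM in GV, 97.8 and 74.4 in IVM MII, against 101 and 104 in IVO MII, all MII libraries well above GV. KDM5A rose by 1.10 ± 0.22 in IVM MII (adjusted p = 0.00180) and by 1.34 ± 0.22 in IVO MII (adjusted p = 0.000335). KDM5C (chromosome X, 52233202 to 52286377) had 4.94 and 4.33 scaled CPM in GV, 10.4 and 7.19 in IVM MII, then 16.4 and 10.7 in IVO MII. The 3 groups did not overlap. Its log2 fold change was 0.93 ± 0.31 in IVM MII (adjusted p = 0.0268) and 1.55 ± 0.31 in IVO MII (adjusted p = 0.00129). In IVM MII the KDM5C call ended without either GV library or IVM MII replicate 1 (adjusted p 0.0700 to 0.161), with the 10 CPM filter (0.0959) and with the length trend removed (0.148). KDM5B averaged 5.51, 5.33 and 3.73 scaled CPM in the 3 groups. Its value in IVO MII against GV was -0.56 (adjusted p = 0.122), and it was called lower with the length trend removed (-1.13, adjusted p = 0.00702). The ratio of KDM5A to KDM5B per kilobase was 5.73 and 5.61 in GV, 15.4 and 10.1 in IVM MII, against 20.4 and 22.1 in IVO MII.

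Of 7 H3K9 erasers, 4 were higher than GV in IVM MII and 4 in IVO MII, against 25.6% and 28.1% of all genes, and 0 were lower. With the length trend removed 2 were higher in IVM MII and 3 in IVO MII. KDM3A (chromosome 13, 22940696 to 22994144), which removes H3K9 mono- and dimethylation, had 40.8 and 31.8 scaled CPM in GV, 94.6 and 85.6 in IVM MII, then 153 and 129 in IVO MII. The groups were stepwise apart, GV lowest and IVO MII highest. It rose by 1.31 ± 0.23 in IVM MII (adjusted p = 0.000701) and by 1.96 ± 0.23 in IVO MII (adjusted p = 3.62e-05). The difference between the MII groups was -0.65 ± 0.22 (adjusted p = 0.0531), which passed the threshold with RLE factors (0.0373), with DESeq2 (0.0195) and with the replicate block (0.0470). KDM3B, its relative, reached at most 1.60 scaled CPM and was not called, except in IVM MII against GV with library totals (adjusted p = 0.0315) and without IVO MII replicate 2 (0.0473).

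KDM4A (chromosome 1, 183906636 to 183963651), which acts on trimethylated H3K9 and H3K36, had 11.2 and 7.81 scaled CPM in GV, 17.8 and 17.6 in IVM MII, against 36.5 and 23.7 in IVO MII. The groups did not overlap. Its log2 fold change was 0.90 ± 0.28 in IVM MII (adjusted p = 0.0200) and 1.66 ± 0.29 in IVO MII (adjusted p = 0.000428). The IVM MII call of KDM4A ended without GV replicate 2 (0.160), IVM MII replicate 1 (0.0598) or IVM MII replicate 2 (0.0634), with the 10 CPM filter (0.0781) and with the length trend removed (0.0746). Between the MII groups its value was -0.77 (adjusted p = 0.0642), called with RLE factors (0.0470), DESeq2 (0.0295), no filter (0.0459) or without IVO MII replicate 2 (0.0161). KDM4B had 2.93 and 3.04 scaled CPM in GV, 8.03 and 6.82 in IVM MII, then 5.14 and 7.03 in IVO MII, and both MII groups were above GV. KDM4B rose by 1.31 ± 0.30 in IVM MII (adjusted p = 0.00402) and by 1.03 ± 0.31 in IVO MII (adjusted p = 0.0126). In IVO MII that call ended without either GV library or IVO MII replicate 2 (adjusted p 0.0607 to 0.0901) and with the length trend removed (0.44, adjusted p = 0.245). KDM4C averaged 4.56, 4.67 and 5.44 scaled CPM and KDM4E, with 6 to 23 counts a library, reached at most 0.609, and neither was called. Whether KDM4E shares reads with close copies was not tested.

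KDM7A (chromosome 3, 173103204 to 173193100), a demethylase of H3K9 and H3K27 dimethylation, had 22.9 and 18.5 scaled CPM in GV, 29.9 and 35.3 in IVM MII, against 64.8 and 51.1 in IVO MII. IVM MII lay between the other groups, without overlap. KDM7A rose by 0.65 ± 0.23 in IVM MII (adjusted p = 0.0356) and by 1.48 ± 0.24 in IVO MII (adjusted p = 0.000266), and IVM MII stood below IVO MII at -0.83 ± 0.23 (adjusted p = 0.0232). The difference between the MII groups was not called without IVM MII replicate 1 (0.153), IVM MII replicate 2 (0.0703) or IVO MII replicate 1 (0.128), or with library totals (0.0795). The rise in IVM MII was lost without GV replicate 2 (0.213) or IVM MII replicate 2 (0.159), with RLE factors (0.0520), with the 10 CPM filter (0.178), with only the 4 libraries compared (0.0594) and with the length trend removed (0.174).

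The 2 H3K27 erasers were scarce and moved apart. KDM6A, on chromosome X (43181027 to 43452578), had 3.20 and 2.67 scaled CPM in GV, 0.602 and 1.70 in IVM MII, then 0.889 and 0.917 in IVO MII. KDM6B (chromosome 16, 7936413 to 7961334) had 0.715 and 0.710 in GV, 2.08 and 1.34 in IVM MII, against 4.40 and 3.40 in IVO MII. GV was the highest group for KDM6A and the lowest for KDM6B. KDM6A fell by 1.36 ± 0.49 in IVM MII (adjusted p = 0.0369) and by 1.70 ± 0.51 in IVO MII (adjusted p = 0.0131). KDM6B rose by 1.26 ± 0.42 in IVM MII (adjusted p = 0.0267) and by 2.45 ± 0.43 in IVO MII (adjusted p = 0.000463), and was lower in IVM MII than in IVO MII (-1.18 ± 0.39, adjusted p = 0.0457).

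Most of these H3K27 eraser calls ended when 1 library was left out, which leaves 1 library in a group. The fall of KDM6A in IVM MII was not called without GV replicate 1 (0.153), GV replicate 2 (0.0835) or IVM MII replicate 1 (0.226) or with library totals (0.0757), and that in IVO MII not without GV replicate 1 (0.0631). The rise of KDM6B in IVM MII was not called without either GV library or IVM MII replicate 1 (0.105 to 0.141) or with the length trend removed (0.143). The KDM6B difference between the MII groups was lost in 9 of the 13 alternatives in which it was tested, among them the replicate block (0.0517), and each library but IVO MII replicate 2 ended it when left out (0.0578 to 0.213). Per kilobase, KDM6B over KDM6A was 0.146 and 0.173 in GV, 2.26 and 0.511 in IVM MII, then 3.23 and 2.42 in IVO MII.

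Of the erasers grouped with H3K36, KDM2A (chromosome 14, 7203245 to 7367259), which removes H3K36 dimethylation at CpG islands, had 9.84 and 8.62 scaled CPM in GV, 21.1 and 16.3 in IVM MII, against 12.9 and 16.6 in IVO MII. GV was lowest, and the MII groups overlapped. Its log2 fold change was 1.02 ± 0.26 in IVM MII (adjusted p = 0.00729) and 0.68 ± 0.26 in IVO MII (adjusted p = 0.0437). The IVO MII call of KDM2A was lost in 8 of the 14 alternatives, with an adjusted p up to 0.762 when the length trend was removed; leaving out GV replicate 1 (0.0939), GV replicate 2 (0.203) or IVO MII replicate 2 (0.213) each ended it. In IVM MII it ended without GV replicate 2 (0.0625) or IVM MII replicate 1 (0.0512) and with the length trend removed (0.0858). KDM2B, which brings a Polycomb complex to CpG islands, averaged 2.07, 2.30 and 1.80 scaled CPM and was not called. KDM8, whose demethylase activity is disputed, fell from 1.09 and 1.12 scaled CPM in GV to 0.324 and 0.142 in IVM MII (log2 -2.20 ± 0.62, adjusted p = 0.0119) and to 0.116 and 0.136 in IVO MII (-3.09 ± 0.71, adjusted p = 0.00277), levels of a few counts. Its IVM MII call ended without either GV library or IVM MII replicate 2 (0.0774 to 0.0902).

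Of the 7 tested PRDM genes, 2 were higher and 2 lower than GV in IVM MII, against 25.6% and 24.7% of all genes. With the length trend removed, these counts were 0 and 2. In IVO MII 1 of the 7 was higher and 2 were lower, against 28.1% and 30.5% of all genes. PRDM15 (chromosome 3, 4897753 to 4977933), a zinc finger factor of early embryonic signalling, was the most abundant of them in GV, at 328 and 417 scaled CPM, and had 79.7 and 78.3 in IVM MII, then 83.1 and 144 in IVO MII. All MII libraries were far below both GV libraries, and IVO MII replicate 2 stood above the other 3 MII libraries. The difference between the MII groups was -0.52 (adjusted p = 0.181) and was called without IVO MII replicate 1 (-0.86, adjusted p = 0.0438). PRDM15 fell by 2.24 ± 0.28 on the log2 scale in IVM MII (adjusted p = 8.95e-05), or 4.71-fold, and by 1.71 ± 0.28 in IVO MII (adjusted p = 0.000287), or 3.28-fold. Both falls were called in every alternative. The family's share held by PRDM15 per kilobase was 64.1% and 69.4% in GV, 27.4% and 25.4% in IVM MII, against 28.4% and 43.7% in IVO MII. Of its exon bases, 0.817% are shared with a gene on the other strand.

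PRDM6 (chromosome 6, 122031471 to 122136499), known as a repressor in smooth muscle, had 88.4 and 68.1 scaled CPM in GV, 134 and 165 in IVM MII, then 32.5 and 52.4 in IVO MII. IVM MII was above GV and IVO MII below it, with no overlap between any of the groups. It was 3.52 times as high in IVM MII as in IVO MII (log2 1.82 ± 0.27, adjusted p = 0.000757). Against GV it was 0.93 ± 0.27 in IVM MII (adjusted p = 0.0121) and -0.88 ± 0.27 in IVO MII (adjusted p = 0.0137). The rise over GV was not called without GV replicate 2 (0.0892) or IVM MII replicate 2 (0.0841), with the 10 CPM filter (0.0522) or with the length trend removed (0.49, adjusted p = 0.141), and the fall not without GV replicate 1 (0.0918) or IVO MII replicate 1 (0.124). PRDM6 over PRDM15 per kilobase was 0.203 and 0.123 in GV, 1.27 and 1.59 in IVM MII, against 0.295 and 0.275 in IVO MII.

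PRDM4 (chromosome 11, 111416975 to 111450058), a zinc finger protein that binds a neurotrophin receptor, had 35.7 and 29.9 scaled CPM in GV, 14.5 and 17.5 in IVM MII, then 33.9 and 28.9 in IVO MII. Only IVM MII stood apart, below the other groups. PRDM4 was lower in IVM MII than in GV (-1.04 ± 0.23, adjusted p = 0.00340) and than in IVO MII (-0.97 ± 0.23, adjusted p = 0.0109), a call that ended without IVM MII replicate 1 (-0.81, adjusted p = 0.0920). PRDM2 (chromosome 1, 214723231 to 214851097), which methylates H3K9, had 34.1 and 23.0 scaled CPM in GV, 54.9 and 55.4 in IVM MII, against 97.4 and 69.7 in IVO MII. Its groups did not overlap, GV being lowest. PRDM2 rose by 0.95 ± 0.26 in IVM MII (adjusted p = 0.00924), not called without GV replicate 2 (0.0898) or with the length trend removed (0.0974), and by 1.55 ± 0.26 in IVO MII (adjusted p = 0.000362). PRDM10 had 38.7 and 72.7 scaled CPM in GV, 54.8 and 45.6 in IVM MII, then 74.3 and 58.4 in IVO MII and was called in no comparison. PRDM1 reached at most 0.398 scaled CPM in any library and was not called.

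Subunits of the H3K4 methyltransferase complexes, a list of 16 genes that were all tested, moved in both directions. In IVM MII 7 were higher and 4 lower than in GV (25.6% and 24.7% of all genes), in IVO MII 9 were higher and 4 lower (28.1% and 30.5% of all genes), and between the MII groups 4 were lower in IVM MII and 0 higher (10.3% and 14.3% of all genes). The shares of all genes are the same for the lists that follow. WDR5, the shared scaffold of these complexes, had 129 and 137 scaled CPM in GV, 13.9 and 11.6 in IVM MII, against 49.3 and 54.7 in IVO MII. The groups were far apart, with IVM MII lowest: WDR5 fell by 3.38 ± 0.23 from GV to IVM MII (adjusted p = 1.57e-06) and by 1.35 ± 0.21 to IVO MII (adjusted p = 0.000245), and was lower in IVM MII than in IVO MII (log2 -2.03 ± 0.22, adjusted p = 0.000102). RBBP5, another core subunit, had 199 and 179 scaled CPM in GV, 236 and 309 in IVM MII, then 777 and 568 in IVO MII, and was lower in IVM MII than in IVO MII (-1.30 ± 0.25, adjusted p = 0.00343). PAGR1, a subunit that joins KMT2C and KMT2D, fell from 22.7 and 26.9 scaled CPM in GV to 3.08 and 2.56 in IVM MII, against 3.01 and 3.46 in IVO MII (log2 -3.13 ± 0.28, adjusted p = 8.44e-06, and -2.93 ± 0.28, adjusted p = 8.62e-06). PAXIP1, its partner in the same complex, rose by 1.87 ± 0.26 in IVM MII (adjusted p = 0.000151) and by 2.58 ± 0.26 in IVO MII (adjusted p = 1.33e-05). KMT2B, the H3K4 writer that mouse oocytes depend on, is entered in the table under a gene number only and so fell outside the selection; it averaged 5.62 scaled CPM in GV, 17.3 in IVM MII and 32.9 in IVO MII, and was called higher than GV in both and lower in IVM MII than in IVO MII (log2 -0.93 ± 0.31, adjusted p = 0.0450).

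Of 9 tested subunits of Polycomb repressive complex 2, in IVM MII 4 were higher and 0 lower than in GV, in IVO MII 4 were higher and 2 lower, and between the MII groups 2 were higher and 2 lower in IVM MII. AEBP2, an accessory subunit, had 2.25 and 3.48 scaled CPM in GV, 5.21 and 7.47 in IVM MII, then 0.502 and 0.577 in IVO MII. It was highest in IVM MII and lowest in IVO MII, a difference of 3.54 ± 0.42 on the log2 scale (adjusted p = 0.000179). JARID2, which helps the complex bind chromatin, had 69.7 and 60.8 scaled CPM in GV, 183 and 189 in IVM MII, against 322 and 291 in IVO MII and rose by 1.51 ± 0.22 in IVM MII (adjusted p = 0.000200) and 2.23 ± 0.22 in IVO MII (adjusted p = 1.11e-05). The core subunits EED and SUZ12 were called in no comparison. Among 13 tested H3K9 partners and readers, 2 exceeded GV in IVM MII and 4 in IVO MII, 0 were lower, and 1 was higher in IVM MII than in IVO MII. CDYL, a reader that binds repressive methylation, had 37.0 and 33.8 scaled CPM in GV, 123 and 117 in IVM MII, then 168 and 153 in IVO MII, rising by 1.76 ± 0.21 (adjusted p = 6.57e-05) and 2.18 ± 0.22 (adjusted p = 1.10e-05).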

How the data were processed

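The 6 libraries were made from oligo-dT primed, template-switched and amplified cDNA, tagmented and read in pairs on a DNBSEQ instrument, per the labels' protocols. Values are raw counts as deposited, 1 row a gene, which the authors made with featureCounts 2.0.1, per the file headers, over RefSeq exons of macFas5, with no option for strand, multimapping or overlap. The submitters' processing notes also name fastp, FastQC, Bowtie2 and SAMtools. As an aligner without spliced alignment, Bowtie2 may lose reads that cross exon junctions. Exon length per gene, in bases, is a further deposited column. Whether libraries of a group came from separate animals is not given in the sources used here.

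Counts were filtered by filterByExpr (15815 of 28164 genes kept), scaled by TMM factors (0.902 to 1.22) and tested with edgeR 4.0.16 in R 4.3.3 by the quasi-likelihood test, fitted to all 6 libraries with group terms and robust dispersions, two-sided, with Benjamini-Hochberg adjustment at 0.05 over all genes tested and no fold threshold. Residual degrees of freedom were 3 and the biological coefficient of variation 0.232. The procedure was tested on simulated data. Members and lists were chosen with earlier results of these data known. Values in full were given for members with at least 10 scaled CPM in the highest group and a call in at least 1 of 3 comparisons (22 members), and up to 3 genes a direction and comparison could be named of each partner list. Alternatives were RLE factors, library totals, DESeq2 1.42.0, no filter, a filter of 10 CPM in 2 libraries, only the 4 libraries compared, a replicate block, removal of the trend on exon length, and leaving out each library. Coordinates are those of macFas5 in the table; names of genes entered by number came from a RefSeq gene table of assembly T2T-MFA8v1.1, used for names only. Counting intervals and floors cover counting error only. Figures were drawn with matplotlib 3.10.9. 1 member is not reported by name here, but it is part of the counts.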

Additional observations from a re-analysis of the deposited data

Results flagged for a closer look

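PRDM6 moved in opposite directions from GV in the 2 MII groups. It was called higher than GV in IVM MII and lower than GV in IVO MII, and the difference between these changes, which equals IVM MII against IVO MII, was 1.82 on the log2 scale with an SE of 0.27 and an adjusted p of 0.000757 by edgeR's quasi-likelihood test. Both IVM MII libraries (134 and 165 scaled CPM) were above all other libraries and both IVO MII libraries (32.5 and 52.4) below them. The rise of PRDM6 in IVM MII was not called in 4 of the 14 alternatives, among them removal of the length trend. Its fall in IVO MII was not called in 2, and the difference between the MII groups was called in all.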

How the results depend on the processing

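Counts of called members were recomputed under 14 alternatives, and no called value changed sign. Members lower in IVM MII than in IVO MII numbered 5, but 8 with RLE factors, 8 with DESeq2 and 3 with library totals. Of all 15815 genes tested 1635 were lower there, but 1945, 2136 and 894 in these alternatives. Members higher in IVM MII than in IVO MII numbered 4, against 3, 4 and 5. Members higher in IVM MII than in GV numbered 18, but 9 with the filter of 10 CPM in 2 libraries, 10 with the length trend removed and 7 to 21 when 1 library was left out; those lower numbered 6, but 10 with the length trend removed and 3 to 8 when 1 library was left out. Members lower in IVO MII than in GV numbered 8, but 12 with the length trend removed and 4 with the 10 CPM filter. That filter left EHMT2, SUV39H1, SETD9, KDM6A and KDM8 untested. The calls of SUV39H2, PRDM15 and PRDM6 held with it, and SETD6 was added. Members higher in IVO MII than in GV numbered 20 and stayed within 1.5 times of that. Member counts also moved when 1 library was left out, as did the share of all genes called. Of the calls, 3 of 9 between the MII groups, 10 of 24 in IVM MII against GV and 21 of 28 in IVO MII against GV held under every alternative in which the gene was tested. A group left with 1 library was assumed to vary like the others. The causes were not tested.

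The replicate numbers pair no libraries in the labels, and deviations of the same number from their group means correlated at -0.144, 0.178 and -0.114 over genes. With the replicate block, members called were 4 higher and 5 lower between the MII groups, 18 and 6 in IVM MII against GV, and 19 and 8 in IVO MII against GV.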

Other observations

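Lysine methyltransferases with names outside the selection included 3 SMYD genes that differed between the MII groups. Of 7 tested, 3 were higher in IVM MII than in IVO MII and 0 lower, and in IVO MII 3 were lower and 2 higher than in GV. SMYD3, which methylates histones and cytoplasmic kinases, had 851 and 982 scaled CPM in GV, 280 and 378 in IVM MII, against 76.0 and 78.1 in IVO MII, and was higher in IVM MII than in IVO MII by 2.09 ± 0.25 on the log2 scale (adjusted p = 0.000172). SMYD2 had 8.65 and 12.7 scaled CPM in GV, 8.19 and 8.18 in IVM MII, then 2.05 and 1.70 in IVO MII, a difference between the MII groups of 2.13 ± 0.31 (adjusted p = 0.000690). The H3K36 writers NSD2 and NSD3 are entered under the older symbols WHSC1 and WHSC1L1. WHSC1 was called in no comparison, and WHSC1L1 was higher in IVO MII than in GV by 1.13 ± 0.24 (adjusted p = 0.00172).

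Among 9 tested arginine methyltransferases, 4 were higher and 1 lower in IVM MII than in GV, 4 were higher and 2 lower in IVO MII, and 1 was higher and 1 lower in IVM MII than in IVO MII. PRMT3, which methylates a ribosomal protein, had 3.88 and 5.54 scaled CPM in GV, 36.2 and 30.4 in IVM MII, against 8.15 and 11 in IVO MII. IVM MII was far above the other groups, by 2.82 ± 0.29 over GV (adjusted p = 2.13e-05) and by 1.79 ± 0.28 over IVO MII (adjusted p = 0.000947). Of 10 tested Jumonji genes and demethylase partners with other names, 6 were higher than GV in IVM MII and 6 in IVO MII, and 1 and 2 were lower. RCOR1, which binds KDM1A to nucleosomes, had 94.5 and 76.0 scaled CPM in GV, 168 and 166 in IVM MII, then 178 and 182 in IVO MII, a rise of 0.97 ± 0.21 in IVM MII (adjusted p = 0.00306) and 1.08 ± 0.22 in IVO MII (adjusted p = 0.00119).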
